A study of Homo sapiens with 8 samples.

Results

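The genes described here are 10 components of the Nodal, activin and TGF-beta pathway, namely NODAL, GDF3, INHBA and TGFB1, which encode ligands, the co-receptor gene TDGF1, the antagonist genes LEFTY1, LEFTY2 and CER1, and the intracellular regulators SMAD7 and SKIL. They were chosen by symbol from the 62086 gene identifiers of the count table, and all 10 were among the 20165 genes with enough counts to be tested. RNA sequencing was performed on BG01, a line of human embryonic stem cells (hESCs) grown in mTeSR1, a serum-free medium that supplies TGF-beta. The cells received 5 µg/mL of anti-M8nAb, a mouse antibody that neutralizes the secreted glycoprotein MFGE-8, or 5 µg/mL of control mouse IgG. Exposure lasted 12 h or 24 h, which gave 4 groups of 2 libraries each and 8 libraries in all. No group was left without antibody or IgG, and all libraries came from 1 cell line. The replicates are named biological, but separate cultures are not mentioned, and p-values therefore reflect only the spread among these libraries, which may be technical.

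Nodal, activin and TGF-beta are secreted dimers that assemble type II and type I receptor kinases, which phosphorylate SMAD2 and SMAD3, and these enter the nucleus with SMAD4 to switch genes on or off. Nodal and GDF3 need the membrane-anchored co-receptor TDGF1 (Cripto), whereas the LEFTY proteins and CER1 block Nodal outside the cell, and SMAD7 and SKIL restrain the signal inside it. In hESCs, activin and Nodal signalling sustains the pluripotent state, LEFTY1 and LEFTY2 are classical target genes of this signal, and stronger signalling drives cells towards mesendoderm.

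Counts over genes ranged between 21010400 and 21792716 per library, and levels are given as CPM, counts brought to a common library size after scaling by the trimmed mean of M values (TMM). All 8 hESC markers examined were above 1 CPM in every group. At 12 h their summed level was 8068 to 8185 CPM with anti-M8nAb against 7205 to 7322 CPM with IgG. At 24 h it was 6754 to 7005 CPM with anti-M8nAb against 6363 to 6401 CPM with IgG. Singly, 6 of the 8 passed as higher and 0 as lower at 12 h, whereas 3 passed as higher and 2 as lower at 24 h. The summed level of 5 neuroectoderm markers was also higher with anti-M8nAb, at 291 to 309 CPM against 233 to 243 CPM with IgG at 12 h. The sum at 24 h was 274 to 299 CPM with anti-M8nAb against 230.0 to 237 CPM with IgG. All 5 passed the test as higher at 12 h, but at 24 h only 2 did, and 1 passed as lower. Of all genes tested, 15.8% passed as higher and 16.4% as lower at 12 h, and 21.2% and 21.3% at 24 h. These marker lists are short, and their counts are to be read against those shares. The summed level of 4 mesoderm markers lay between 0.196 and 2.35 CPM in all libraries. For 4 endoderm markers it was 8.8 to 8.9 CPM with anti-M8nAb against 5.7 to 6.4 CPM with IgG at 24 h. Of the 2 tested, 1 passed as higher and 1 as lower. For 5 trophoblast markers it was 17.8 to 19.0 CPM with anti-M8nAb against 20.1 to 20.8 CPM with IgG at 24 h. Of the 2 tested, 1 passed as higher and 0 as lower. Of 4 fibroblast markers tested, 1 passed as higher and 1 as lower at each time. The part of these shifts in the results below was not tested, and in bulk RNA a change in the number of cells that express a gene and a change in RNA per cell cannot be told apart.

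Promoter sequences were available for 7 of the 10 genes in a RefSeq table of GRCh38.p14. Of these, 5 are printed, those whose genes differed most between anti-M8nAb and IgG libraries at 24 h, and they were thus chosen after the values were seen. Each is the stretch of 250 bases before the transcription start on the minus strand, written 5′ to 3′. Capitals mark matches on either strand to CAGAC, the core of SMAD-binding elements, or to AATNNACA, a form of the site bound by FOXH1, the DNA-binding partner of SMAD2 in Nodal signalling.
NODAL: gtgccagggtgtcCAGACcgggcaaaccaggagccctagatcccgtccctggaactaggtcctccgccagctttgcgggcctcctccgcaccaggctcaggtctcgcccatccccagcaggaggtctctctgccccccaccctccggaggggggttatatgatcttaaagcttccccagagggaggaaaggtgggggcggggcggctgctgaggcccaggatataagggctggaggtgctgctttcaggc
GDF3: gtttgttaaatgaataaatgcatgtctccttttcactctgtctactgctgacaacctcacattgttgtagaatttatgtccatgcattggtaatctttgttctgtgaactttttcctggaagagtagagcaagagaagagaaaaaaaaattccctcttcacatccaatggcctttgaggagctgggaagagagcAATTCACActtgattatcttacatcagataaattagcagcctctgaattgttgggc
CER1: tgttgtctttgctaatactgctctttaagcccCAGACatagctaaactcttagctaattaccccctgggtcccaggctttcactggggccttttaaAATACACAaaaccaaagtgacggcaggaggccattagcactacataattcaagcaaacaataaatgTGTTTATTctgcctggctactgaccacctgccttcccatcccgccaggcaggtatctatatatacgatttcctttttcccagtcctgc
INHBA: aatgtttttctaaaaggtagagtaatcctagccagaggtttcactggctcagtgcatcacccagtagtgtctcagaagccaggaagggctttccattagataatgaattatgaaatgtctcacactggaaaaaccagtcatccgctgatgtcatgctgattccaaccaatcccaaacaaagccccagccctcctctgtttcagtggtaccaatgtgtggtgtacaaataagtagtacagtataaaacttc
SMAD7: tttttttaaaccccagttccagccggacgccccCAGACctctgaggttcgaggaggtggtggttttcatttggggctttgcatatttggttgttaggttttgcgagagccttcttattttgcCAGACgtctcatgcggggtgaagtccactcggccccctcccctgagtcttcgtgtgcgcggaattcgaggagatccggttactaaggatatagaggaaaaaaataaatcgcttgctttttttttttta

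The NODAL stretch (chr10:70441682-70441931) held 1 CAGAC match that begins 237 bases before the start. The GDF3 stretch (chr12:7695776-7696025) held 1 AATNNACA match that begins 56 bases before the start. The CER1 stretch (chr9:14722734-14722983) held 1 CAGAC match and 2 AATNNACA matches, 1 on each strand. The INHBA stretch (chr7:41703091-41703340) held neither motif, and the printed stretch of SMAD7 (chr18:48950966-48951215) held 2 CAGAC matches. The table gives SMAD7 2 further starts, whose stretches held 1 (chr18:48949334-48949583) and 0 (chr18:48942808-48943057) CAGAC matches. Of all 35116 RefSeq stretches of this length, 38.0% held CAGAC and 9.88% held AATNNACA, so a match to the shorter motif is common, and no match was taken as a binding site.

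At 12 h, 8 of the 10 genes differed between anti-M8nAb and IgG at an adjusted p under 0.05 in edgeR's quasi-likelihood test. NODAL, GDF3, INHBA, CER1, TDGF1 and SKIL were higher with anti-M8nAb, 6 in all, and the 2 genes LEFTY1 and LEFTY2 were lower. INHBA entered the test only through its anti-M8nAb libraries, so a lower call was hardly open to it at either time. The background was wide, since 32.2% of all genes tested passed at 12 h, 15.8% higher and 16.4% lower. At 24 h, 7 of the 10 passed, 4 higher (NODAL, GDF3, INHBA and CER1) and 3 lower (LEFTY1, LEFTY2 and SMAD7). Of all genes tested, 42.5% passed at this time, 21.2% higher and 21.3% lower. Taken without its sign, the log2 fold change at 12 h had a median of 0.78 over these 10 genes, against 0.26 over all genes tested. At 24 h these medians were 1.17 and 0.32. The 10 genes were chosen with earlier results of these data known, so these contrasts are a description only.

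Past a threshold of at least 2-fold, 2 of the 10 genes passed at 12 h, where 6.37% of all genes did, and 6 passed at 24 h, where 9.6% did. NODAL, GDF3, INHBA and CER1 were higher with anti-M8nAb at both times, a pattern shown by 10.1% of all genes tested. LEFTY1 and LEFTY2 were lower at both times, a pattern shown by 10.7%. The 2 libraries of 1 group lay wholly above or below those of the other for 9 of the 10 genes at each time, but so they did for 66.3% of all genes at 12 h and 69.0% at 24 h. With library totals in place of TMM, the share of higher calls among all genes called was 36.7% at 12 h, against 49.2% with TMM. At 24 h it was 36.8%, against 49.8% with TMM.

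**Figure D1:**
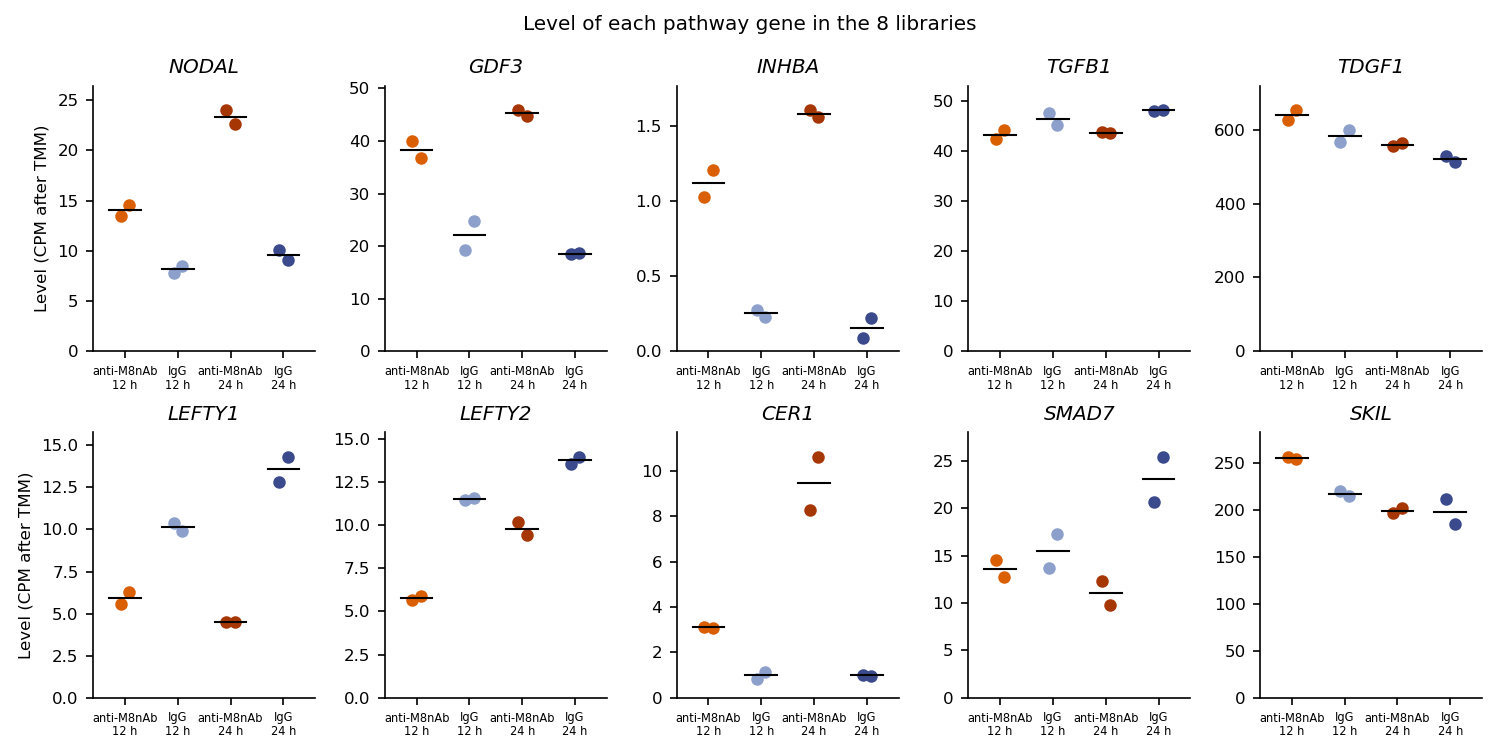
Level of each of the 10 genes in CPM after TMM scaling (vertical axes, each from 0), by group, with 1 point per library and a line at the mean of the 2 libraries. NODAL, GDF3, INHBA and CER1 are higher with anti-M8nAb than with IgG at both times, LEFTY1 and LEFTY2 are lower, and SMAD7 is apart at 24 h, at 9.79 and 12.3 CPM with anti-M8nAb against 20.7 and 25.4 CPM with IgG.

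Among the ligands, NODAL (chromosome 10, 70431936 to 70447951, minus strand, GRCh38), the TGF-beta family member that patterns the early embryo, was higher with anti-M8nAb at both times. At 12 h it was at 13.5 and 14.6 CPM with anti-M8nAb and at 7.83 and 8.46 CPM with IgG. At 24 h it was at 24.0 and 22.7 CPM with anti-M8nAb and at 10.04 and 9.07 CPM with IgG. The groups did not overlap at either time, and both anti-M8nAb libraries at 24 h were above every other library. NODAL was higher by 0.79 (SE 0.14, adjusted p = 9.99e-06) at 12 h and by 1.29 (SE 0.13, adjusted p = 1.81e-11) at 24 h on the log2 scale. The difference between these, 0.50 (SE 0.19), did not pass the test (adjusted p = 0.0717). Of the exon sequence of NODAL, 33.5% overlaps a gene without a symbol on the other strand, ENSG00000280401. The log2 level of that gene was also higher with anti-M8nAb, by 0.74 (SE 0.18) at 12 h and 1.07 (SE 0.17) at 24 h. Whether the counting used strand is not given in the sources used here, so reads over the shared sequence may belong to either gene.

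GDF3 (chromosome 12, 7689784 to 7695775, minus strand), a Nodal-like ligand made by pluripotent cells, was at 39.9 and 36.7 CPM with anti-M8nAb and at 19.3 and 24.8 CPM with IgG at 12 h. The levels of GDF3 at 24 h were 45.9 and 44.7 CPM with anti-M8nAb and 18.4 and 18.8 CPM with IgG. Every anti-M8nAb library was above every IgG library, and the IgG libraries at 12 h were the least alike. On the log2 scale GDF3 was higher by 0.80 (SE 0.10, adjusted p = 2.11e-08) at 12 h and by 1.28 (SE 0.10, adjusted p = 2.28e-14) at 24 h.

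INHBA (chromosome 7, 41667168 to 41705834, minus strand) encodes the beta A subunit that dimerizes into activin A, and it was the least abundant of the 10 genes. Its libraries held 21 and 25 counts with anti-M8nAb against 6 and 5 counts with IgG at 12 h. They held 33 and 32 counts with anti-M8nAb against 2 and 5 counts with IgG at 24 h. The groups were apart at both times, on few reads. The anti-M8nAb libraries alone brought INHBA past the filter on low counts. From the summed counts, the ratio of anti-M8nAb to IgG in CPM was 4.42 at 12 h, with a 95% interval of 2.26 to 9.46 that covers counting error only. It was 10.2 at 24 h, with an interval of 4.69 to 26.4. The edgeR fit gave INHBA a log2 fold change of 2.12 at 12 h (SE 0.56, adjusted p = 0.00286) and 3.31 at 24 h (SE 0.58, adjusted p = 8.93e-06). The value at 24 h was 2.80 without IgG replicate 1 and 4.07 without IgG replicate 2.

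TGFB1 (chromosome 19, 41301587 to 41353922, minus strand), the founding ligand of the TGF-beta branch, was close in all groups. At 12 h its level was 42.3 and 44.1 CPM with anti-M8nAb against 47.5 and 45.1 CPM with IgG. At 24 h the level was 43.7 and 43.5 CPM with anti-M8nAb against 48.0 and 48.1 CPM with IgG. The anti-M8nAb libraries were the lower ones at both times, by a narrow margin. The log2 fold changes of -0.10 (SE 0.08, adjusted p = 0.376) at 12 h and -0.14 (SE 0.08, adjusted p = 0.155) at 24 h did not pass the test. With library totals the value at 24 h was -0.23 and passed (adjusted p = 0.0182).

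TDGF1 (chromosome 3, 46574534 to 46582457, plus strand), the Nodal co-receptor and a long-used marker of pluripotent cells, had by far the highest level of the 10 genes, with a mean FPKM of 249 with anti-M8nAb and 237 with IgG at 12 h. At 12 h its level was 626 and 652 CPM with anti-M8nAb against 566 and 598 CPM with IgG. At 24 h the level was 555 and 562 CPM with anti-M8nAb against 529 and 511 CPM with IgG. The libraries did not overlap, but the differences were small. On the log2 scale they were 0.13 at 12 h (SE 0.046, adjusted p = 0.0218) and 0.10 at 24 h (SE 0.046, adjusted p = 0.0685). The call at 12 h was lost with library totals (0.075, adjusted p = 0.216), without a filter on low counts (0.13, adjusted p = 0.06) and in limma on FPKM (0.074, adjusted p = 0.223 with a pseudocount of 1). It was also lost without anti-M8nAb replicate 2 at 12 h (0.11, adjusted p = 0.159) and without IgG replicate 1 at 12 h (0.10, adjusted p = 0.287). Of the 100-base stretches of the exons of TDGF1, 13.9% are also found in its pseudogene TDGF1P3.

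The antagonists moved in opposite directions, LEFTY1 and LEFTY2 down and CER1 up with anti-M8nAb. LEFTY1 (chromosome 1, 225886282 to 225911382, minus strand), a secreted inhibitor that blocks Nodal and its co-receptor, was at 5.55 and 6.27 CPM with anti-M8nAb and at 10.4 and 9.93 CPM with IgG at 12 h. At 24 h its level was 4.48 and 4.53 CPM with anti-M8nAb and 12.8 and 14.3 CPM with IgG. No anti-M8nAb library reached any IgG library, and the lowest values were those of anti-M8nAb at 24 h. LEFTY1 fell by 0.78 (SE 0.16, adjusted p = 0.000141) at 12 h and by 1.59 (SE 0.16, adjusted p = 4.18e-11) at 24 h on the log2 scale.

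LEFTY2 (chromosome 1, 225936598 to 225941383, minus strand), its neighbouring paralogue of like function, was at 5.69 and 5.88 CPM with anti-M8nAb and at 11.5 and 11.6 CPM with IgG at 12 h. The levels at 24 h were 10.2 and 9.40 CPM with anti-M8nAb and 13.5 and 13.96 CPM with IgG. The groups were apart at both times, and the anti-M8nAb libraries at 24 h came nearer to IgG. LEFTY2 fell by 0.99 (SE 0.15, adjusted p = 1.12e-06) at 12 h and by 0.49 (SE 0.14, adjusted p = 0.00388) at 24 h on the log2 scale. The difference between the times, 0.50 (SE 0.21), did not pass the test (adjusted p = 0.11). Of the 100-base exon stretches, 14.8% of those of LEFTY1 occur in LEFTY2 and 11.6% of those of LEFTY2 occur in LEFTY1, where reads could be split between them.

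CER1 (chromosome 9, 14719724 to 14722733, minus strand) encodes Cerberus, a secreted inhibitor of Nodal and BMP proteins that is known as a marker of mesendoderm and endoderm. It was at 3.14 and 3.09 CPM with anti-M8nAb and at 0.829 and 1.15 CPM with IgG at 12 h. CER1 at 24 h was at 8.28 and 10.6 CPM with anti-M8nAb and at 1.02 and 0.969 CPM with IgG. All 4 anti-M8nAb libraries were above all 4 IgG libraries, and the IgG libraries of both times lay within a narrow range. CER1 was 3.13-fold higher at 12 h (log2 1.65, SE 0.29, adjusted p = 1.47e-05) and 9.44-fold higher at 24 h (log2 3.24, SE 0.26, adjusted p = 3.9e-14).

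Of the intracellular regulators, SMAD7 (chromosome 18, 48919853 to 48950965, minus strand), the inhibitory SMAD that directs receptors to degradation, was at 14.5 and 12.7 CPM with anti-M8nAb and at 13.6 and 17.3 CPM with IgG at 12 h. The groups overlapped at this time, and the log2 fold change of -0.19 (SE 0.14) did not pass the test (adjusted p = 0.321). At 24 h it was at 12.3 and 9.79 CPM with anti-M8nAb and at 20.7 and 25.4 CPM with IgG, with no overlap. SMAD7 fell by 1.06 on the log2 scale at this time (SE 0.13, adjusted p = 1.19e-08).

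SKIL (chromosome 3, 170357342 to 170396835, plus strand), which encodes the SMAD-binding repressor SnoN, was at 256 and 254 CPM with anti-M8nAb and at 220.0 and 214 CPM with IgG at 12 h. At 24 h it was at 197 and 202 CPM with anti-M8nAb and at 211 and 184 CPM with IgG, where the IgG libraries enclosed those of anti-M8nAb. SKIL was higher by 0.23 on the log2 scale at 12 h (SE 0.056, adjusted p = 0.000992), a call that was lost in limma on FPKM (0.17, adjusted p = 0.0906 with a pseudocount of 1). At 24 h its log2 fold change was 0.0091 (SE 0.057, adjusted p = 0.916).

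**Figure D2:**
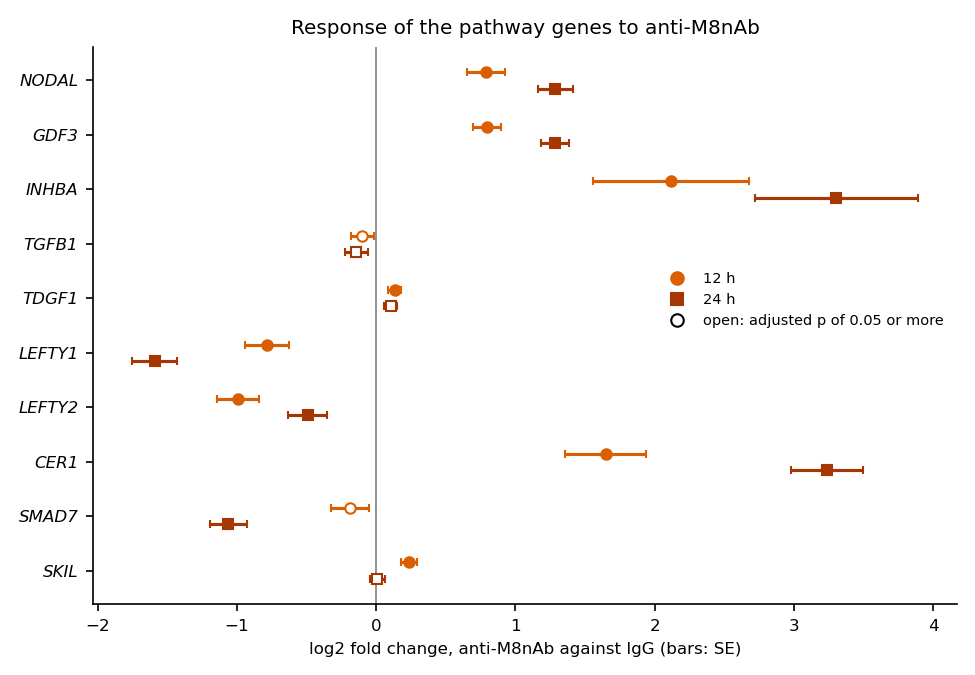
Log2 fold change of anti-M8nAb against IgG (horizontal axis) for each of the 10 genes at 12 h (circles) and 24 h (squares), with bars of 1 SE and open symbols at an adjusted p of 0.05 or more. INHBA and CER1 lie farthest to the right, at 3.31 and 3.24 at 24 h, and LEFTY1 farthest to the left, at -1.59 at 24 h.

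The response differed between the times for 4 of the 10 genes when the difference itself was tested, where 12.3% of all genes tested passed, 5.79% in the upward direction and 6.54% in the downward direction. The increase of CER1 was larger at 24 h by 1.59 on the log2 scale (SE 0.41, adjusted p = 0.00659), and that of GDF3 by 0.49 (SE 0.14, adjusted p = 0.0185). LEFTY1 was lower by a further 0.81 (log2 difference -0.81, SE 0.23, adjusted p = 0.0141), and SMAD7 by a further 0.88 (log2 difference -0.88, SE 0.19, adjusted p = 0.00118). The call of CER1 was lost without IgG replicate 2 at 12 h (1.32, adjusted p = 0.104). That of LEFTY1 was lost without anti-M8nAb replicate 2 at 12 h (-0.72, adjusted p = 0.0756), IgG replicate 2 at 12 h (-0.79, adjusted p = 0.0596) or IgG replicate 2 at 24 h (-0.73, adjusted p = 0.0626). The call of GDF3 was lost without any 1 of 5 libraries. These were anti-M8nAb replicate 2 at 12 h (0.43, adjusted p = 0.0792), IgG replicate 2 at 12 h (0.28, adjusted p = 0.344), anti-M8nAb replicate 1 at 24 h (0.47, adjusted p = 0.0514), IgG replicate 1 at 24 h (0.45, adjusted p = 0.0723) and IgG replicate 2 at 24 h (0.49, adjusted p = 0.0561). SMAD7 kept its call without any single library and lost it in limma on FPKM (-0.73, adjusted p = 0.079 with a pseudocount of 1).

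Between the times within 1 treatment, 6 of the 10 genes differed with anti-M8nAb, where 31.9% of all genes tested passed, 16.1% higher and 15.7% lower at 24 h. With IgG 3 differed, where 13.7% of all genes passed, 7.01% higher and 6.64% lower. These comparisons share their libraries with those above. With anti-M8nAb, the level at 24 h against 12 h was higher by 0.73 for NODAL (SE 0.12, adjusted p = 7.29e-06), 0.76 for LEFTY2 (SE 0.16, adjusted p = 0.000145) and 1.60 for CER1 (SE 0.22, adjusted p = 2.18e-07) on the log2 scale. It was lower for SKIL (-0.36, SE 0.06, adjusted p = 1.93e-06) and TDGF1 (-0.19, SE 0.05, adjusted p = 0.000941). LEFTY1 (-0.39), SMAD7 (-0.30), INHBA (0.50) and TGFB1 (0.012) did not pass. In filtered limma on FPKM, LEFTY1 did pass (-0.27, adjusted p = 0.045 with a pseudocount of 1). GDF3 was just past the threshold (0.24, adjusted p = 0.0495) and lost the call in 7 of the 8 fits that left out 1 library each (adjusted p of 0.0527 to 0.29). The exception was the fit without anti-M8nAb replicate 1 at 12 h.

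With IgG, SMAD7 was higher at 24 h than at 12 h by 0.57 on the log2 scale (SE 0.13, adjusted p = 0.0017). It lost this call without IgG replicate 1 at 12 h (0.42, adjusted p = 0.12) or IgG replicate 2 at 24 h (0.42, adjusted p = 0.109). TDGF1 was lower (-0.16, SE 0.05, adjusted p = 0.013), and lost the call without IgG replicate 2 at 12 h (-0.11, adjusted p = 0.353) or at 24 h (-0.14, adjusted p = 0.117). LEFTY1 was at the threshold (0.42, SE 0.15, adjusted p = 0.0497) and lost the call without any 1 of the 4 IgG libraries (0.34 to 0.51, adjusted p of 0.0619 to 0.28). NODAL, GDF3, INHBA and CER1 did not pass this test, with log2 differences of 0.23, -0.24, -0.69 and 0.0079. Without 1 library, GDF3 was between -0.41 and -0.040 and passed without IgG replicate 1 at 12 h (adjusted p = 0.038), and INHBA was between -1.45 and -0.18. With library totals, 65.9% of all genes called in this comparison were higher at 24 h, against 51.4% with TMM.

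To compare levels between genes, FPKM was used, which divides by length. In every group TDGF1 was highest and INHBA lowest, with 0.187 FPKM with anti-M8nAb and 0.0194 FPKM with IgG at 24 h. TDGF1, TGFB1, SKIL and GDF3 were the most abundant in every group. Below them, NODAL came first with anti-M8nAb at both times, above both LEFTY genes. With IgG the order below them was LEFTY1, LEFTY2, SMAD7, NODAL and CER1 at both times. At 24 h with anti-M8nAb, CER1 came next after NODAL with 7.50 ± 1.31 FPKM (SD, n = 2), against 0.840 ± 0.0276 FPKM with IgG. Neighbours whose libraries overlapped were SKIL and GDF3, SMAD7 and LEFTY1, and LEFTY2 and CER1 with anti-M8nAb at 12 h. They were SMAD7 and NODAL with IgG at 12 h, and LEFTY2 and SMAD7 with IgG at 24 h.

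The balance of NODAL to its antagonists was read as a ratio of FPKM within each library, as a description. NODAL per LEFTY1 was 2.21 and 2.11 with anti-M8nAb against 0.682 and 0.772 with IgG at 12 h. At 24 h this ratio was 4.86 and 4.53 with anti-M8nAb against 0.709 and 0.575 with IgG. NODAL thus exceeded LEFTY1 only in the anti-M8nAb libraries. NODAL per LEFTY2 was 2.60 and 2.72 with anti-M8nAb against 0.748 and 0.800 with IgG at 12 h. At 24 h this ratio was 2.59 and 2.64 with anti-M8nAb against 0.812 and 0.712 with IgG. Both ratios were above 1 in all 4 anti-M8nAb libraries and below 1 in all 4 IgG libraries. LEFTY2 per LEFTY1 was 0.849 and 0.776 with anti-M8nAb against 0.911 and 0.965 with IgG at 12 h. It was 1.88 and 1.72 with anti-M8nAb against 0.873 and 0.807 with IgG at 24 h. LEFTY2 exceeded LEFTY1 in the anti-M8nAb libraries at 24 h and in no other library.

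**Figure D3:**
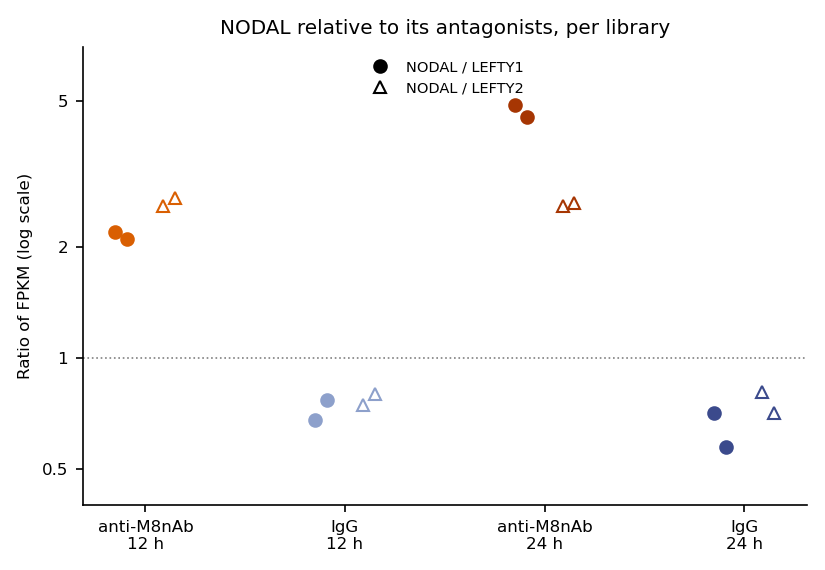
Ratio of the FPKM of NODAL to that of LEFTY1 (filled circles) or LEFTY2 (open triangles) in each library, by group, on a log axis with a dotted line at 1. The anti-M8nAb libraries lie above the line, between 2.11 and 4.86, and the IgG libraries below it, between 0.575 and 0.812.

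The genes whose pattern over the 8 libraries was most like that of NODAL, by Pearson correlation of log2 CPM among 12555 genes with a mean of at least 5 CPM, were CAMK2D (r = 0.995), SLC2A3 (0.994), PLXNA4 (0.993), XYLT1 (0.993) and VCL (0.992). CAMK2D encodes a calcium and calmodulin-dependent kinase subunit, SLC2A3 a glucose transporter, PLXNA4 a semaphorin receptor, XYLT1 a xylosyltransferase of proteoglycan synthesis and VCL vinculin, a protein of cell adhesions. Among the 10 genes themselves, r with NODAL was 0.982 for CER1, 0.916 for INHBA, 0.9 for GDF3 and -0.894 for LEFTY1. These values describe 8 libraries that share 4 groups, and carry no test.

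Another 69 genes of the pathway and its responses, in 6 lists, were set beside the 10 genes, and 58 of them passed the filter on low counts. At 12 h, 16 of the 58 rose and 12 fell with anti-M8nAb. At 24 h, 22 rose and 14 fell. These are 27.6% and 20.7% of the 58 at 12 h, beside 15.8% higher and 16.4% lower over all genes tested, and 37.9% and 24.1% at 24 h, beside 21.2% and 21.3%. The counts of the single lists stand on few genes and are to be read against the same shares. The lists, too, were chosen with earlier results of these data known. Of the other ligands, 4 of 9 were tested and 5 (TGFB2, INHBB, INHA, GDF1 and MSTN) were below the filter. GDF11, a ligand close to myostatin, was at 23.7 and 24.6 CPM with anti-M8nAb and at 40.5 and 36.8 CPM with IgG at 24 h (log2 fold change -0.68, SE 0.09, adjusted p = 2.6e-08). GDF11 did not pass at 12 h (-0.18). It passed there with library totals (-0.24, adjusted p = 0.0197) and with each time fitted alone (-0.18, adjusted p = 0.0373). INHBE, which encodes the activin beta E subunit, was lower at 12 h (-0.64, SE 0.21, adjusted p = 0.0166) and higher at 24 h (0.76, SE 0.19, adjusted p = 0.00123), and 16.4% of its exon sequence overlaps a gene on the other strand. Its call at 12 h was lost with DESeq2 (adjusted p = 0.0556), and both calls in limma on FPKM without a filter (adjusted p = 0.194 at 12 h and 0.105 at 24 h). The value of INHBE at 12 h lost its call without anti-M8nAb replicate 1 (-0.59, adjusted p = 0.0728) or IgG replicate 2 (-0.36, adjusted p = 0.348), and that at 24 h without IgG replicate 1 (0.53, adjusted p = 0.0688). INHBC, a related subunit gene, was under 0.7 CPM in every library, and passed at 24 h (adjusted p = 0.0233), a call lost without any 1 of the 4 libraries at 24 h (adjusted p of 0.0818 to 0.204). The call of INHBC was also lost with DESeq2 (adjusted p = 0.107). INHBC entered the test only through its anti-M8nAb libraries at 24 h, so a lower call at 24 h was hardly open to it. TGFB3 did not pass at either time.

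Of the receptors and co-receptors, 8 of 10 were tested (ACVRL1 and CFC1 were below the filter), of which 2 rose and 2 fell with anti-M8nAb at 12 h. At 24 h, 1 rose and 2 fell, with no change of 2-fold. ACVR2B, a type II receptor for activin and Nodal, was lower at 12 h (-0.33, SE 0.06, adjusted p = 4.14e-05) and at 24 h (-0.32, SE 0.06, adjusted p = 5.43e-05). TGFBR2, the type II receptor for TGF-beta, was at 11 and 11.8 CPM with anti-M8nAb against 16.6 and 17.1 CPM with IgG at 24 h (-0.56, SE 0.13, adjusted p = 0.000392). TGFBR2 did not pass at 12 h (-0.078). TGFBR3, the co-receptor betaglycan, was higher at 12 h (0.51, SE 0.16, adjusted p = 0.0125) and at 24 h (0.66, SE 0.17, adjusted p = 0.00113). Its call at 12 h was lost without anti-M8nAb replicate 1 (0.33, adjusted p = 0.242) or IgG replicate 1 (0.47, adjusted p = 0.106), and both calls in limma on FPKM (adjusted p = 0.137 at 12 h and 0.0656 at 24 h with a pseudocount of 1). The type I receptor genes TGFBR1 (0.36, adjusted p = 6.27e-05) and ACVR1B (-0.22, adjusted p = 0.0398) passed at 12 h and not at 24 h. The call of TGFBR1 was lost in limma on FPKM without a filter (0.27, adjusted p = 0.0904). The call of ACVR1B was lost without anti-M8nAb replicate 2 at 12 h (-0.088, adjusted p = 0.6) or either IgG library at 12 h (adjusted p of 0.277 and 0.0918), and also with DESeq2 (adjusted p = 0.0817) and in limma on FPKM (adjusted p = 0.0679 with a pseudocount of 1).

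Of the extracellular and membrane regulators, 11 of 12 were tested (DAND5 was below the filter), of which 2 rose and 4 fell at 12 h. At 24 h, 2 rose and 3 fell. LTBP1, which holds latent TGF-beta in the matrix, was at 31.4 and 30.0 CPM with anti-M8nAb against 42.0 and 45.3 CPM with IgG at 12 h. At 24 h LTBP1 was at 24.6 and 22.0 CPM with anti-M8nAb against 45.2 and 47.5 CPM with IgG (log2 fold change -0.99, SE 0.09, adjusted p = 2.53e-12). LTBP3, its paralogue, was lower by less at 12 h (-0.57, adjusted p = 0.0002) and at 24 h (-0.33, adjusted p = 0.0163), the last a call lost without anti-M8nAb replicate 2 (adjusted p = 0.107) or IgG replicate 2 (adjusted p = 0.122). FURIN, the protease that matures these ligands, was lower at 12 h (-0.60, SE 0.10, adjusted p = 3.06e-06) and did not pass at 24 h (0.057). Its response differed between the times (0.65, adjusted p = 0.000456). BAMBI, a decoy receptor, was higher at 12 h (0.44, SE 0.09, adjusted p = 0.000187), and FSTL3, an activin-binding protein, was higher at 24 h (0.89, SE 0.17, adjusted p = 3.98e-05). Both calls were lost in limma on FPKM without a filter (adjusted p = 0.0639 for BAMBI and 0.0516 for FSTL3). BAMBI did not pass at 24 h (-0.082), nor did FSTL3 at 12 h (0.22).

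Of the SMADs, cofactors and modifiers, all 18 were tested, of which 2 rose and 4 fell at 12 h. At 24 h, 8 rose and 4 fell, again with no change of 2-fold. SMAD2, a carrier of the signal, was higher at 12 h (0.40, SE 0.07, adjusted p = 1.13e-05) and at 24 h (0.29, SE 0.07, adjusted p = 0.00064). The call of SMAD2 at 24 h was lost without IgG replicate 2 (0.16, adjusted p = 0.0856), and both calls were lost in limma on FPKM (adjusted p = 0.0688 at 12 h and 0.2 at 24 h with a pseudocount of 1). FOXH1, which carries Nodal signals to DNA, was at 34.0 and 36.9 CPM with anti-M8nAb against 46.7 and 47.3 CPM with IgG at 12 h (-0.41, SE 0.09, adjusted p = 0.000218). FOXH1 did not pass at 24 h (-0.13). It passed there with library totals (-0.22, adjusted p = 0.0395) and in filtered limma on FPKM (-0.21, adjusted p = 0.034 with a pseudocount of 1). Of its exon sequence, 39.2% overlaps KIFC2 on the other strand. PPM1A, a phosphatase of SMAD2 and SMAD3, was higher at 24 h (0.46, SE 0.07, adjusted p = 1.85e-06), as was TRIM33 (0.33, SE 0.06, adjusted p = 3.4e-05), a ubiquitin ligase that binds SMADs. Both calls were lost in limma on FPKM without a filter (adjusted p = 0.0511 for PPM1A and 0.0846 for TRIM33). PPM1A (0.073) and TRIM33 (0.16) did not pass at 12 h. TRIM33 passed there with each time fitted alone (0.16, adjusted p = 0.0138). SMURF1, a ubiquitin ligase that works with SMAD7, was lower at 12 h (-0.37, SE 0.08, adjusted p = 0.000174) and did not pass at 24 h (-0.16). At 24 h SMURF1 passed with library totals (-0.25, adjusted p = 0.00651) and in filtered limma on FPKM (-0.22, adjusted p = 0.0351 with a pseudocount of 1). Of its exon sequence, 11.7% overlaps TRRAP on the other strand.

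All 11 genes of the list of TGF-beta-inducible genes were tested, of which 8 rose and 1 fell at 12 h. At 24 h, 8 rose and 2 fell. Their median log2 fold changes were 0.86 (12 h) and 1.39 (24 h), beside 0.0015 and 0.0034 over all genes tested. CCN2, a secreted matrix-associated protein, was at 326 and 282 CPM with anti-M8nAb against 81.5 and 76.4 CPM with IgG at 12 h. At 24 h CCN2 was at 1063 and 1180.0 CPM with anti-M8nAb against 110.8 and 113.6 CPM with IgG. On the log2 scale it was higher by 1.95 at 12 h (SE 0.061, adjusted p = 2.68e-28) and by 3.32 at 24 h (SE 0.061, adjusted p = 5.98e-38). TAGLN, which encodes an actin-binding protein, was higher by 0.86 at 12 h (adjusted p = 5.15e-17) and 1.98 at 24 h (adjusted p = 2.4e-31), with 34.1% of its exon sequence shared with PCSK7 on the other strand. BHLHE40, a transcriptional repressor, was higher by 1.81 (adjusted p = 2.35e-13) and 2.54 (adjusted p = 1.05e-18). CDKN1A, which encodes the cell cycle inhibitor p21, was higher by 1.09 and 2.52. TGFBI, a matrix protein first found through its induction by TGF-beta, was higher by 0.34 at 12 h (adjusted p = 0.0099) and 0.80 at 24 h (adjusted p = 7.32e-09), and the call at 12 h was lost without IgG replicate 1 at 12 h (0.26, adjusted p = 0.162). Several of these genes also respond to other signals, so the list is not particular to TGF-beta.

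Of the 9 Nodal and activin targets of mesendoderm, 6 were tested (GSC, SOX17 and GATA6 were below the filter), of which 2 rose and 0 fell at 12 h. At 24 h, 1 rose and 2 fell. FOXA2, a transcription factor of endoderm, was at 0.633 and 0.731 CPM with anti-M8nAb against 3.20 and 2.42 CPM with IgG at 24 h (-2.03, SE 0.35, adjusted p = 5.42e-06), and did not pass at 12 h (0.29). LHX1, a transcription factor of mesendoderm, was at 1.08 and 1.83 CPM with anti-M8nAb against 0.276 and 0.552 CPM with IgG at 12 h (1.80, SE 0.51, adjusted p = 0.00529) and passed at 24 h too (1.96, SE 0.57, adjusted p = 0.00432). Both calls were lost in limma on FPKM without a filter (adjusted p = 0.101 at 12 h and 0.133 at 24 h). The IgG libraries of LHX1 were low at 12 h, so a lower call at that time was hardly open to it. The same may hold at 24 h. The call of LHX1 at 12 h was lost without anti-M8nAb replicate 2 (1.37, adjusted p = 0.129) or IgG replicate 1 (1.40, adjusted p = 0.101). MIXL1, a homeobox gene of the primitive streak, was at 0.682 and 0.633 CPM with anti-M8nAb against 2.09 and 1.67 CPM with IgG at 24 h (-1.51, SE 0.49, adjusted p = 0.0106), a call lost without anti-M8nAb replicate 2 (-1.46, adjusted p = 0.0574) or IgG replicate 1 (-1.35, adjusted p = 0.109) and with DESeq2 (adjusted p = 0.0638). EOMES, a T-box factor of mesendoderm, passed as higher at 12 h, at 0.540 and 0.579 CPM with anti-M8nAb against 0.184 and 0.046 CPM with IgG. This call was lost without either anti-M8nAb library at 12 h (adjusted p of 0.0769 and 0.101), without IgG replicate 2 (1.58, adjusted p = 0.26) and with DESeq2 (adjusted p = 0.093). It did not pass at 24 h. Its IgG libraries at 12 h were near 0, so a lower call at that time was hardly open to it. TBXT, the primitive streak factor Brachyury, held 1 and 0 counts with anti-M8nAb against 3 and 2 counts with IgG at 12 h. At 24 h TBXT held 10 and 11 counts with anti-M8nAb against 3 and 4 counts with IgG, and it passed at neither time (adjusted p = 0.0775 at 24 h).

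**Figure D4:**
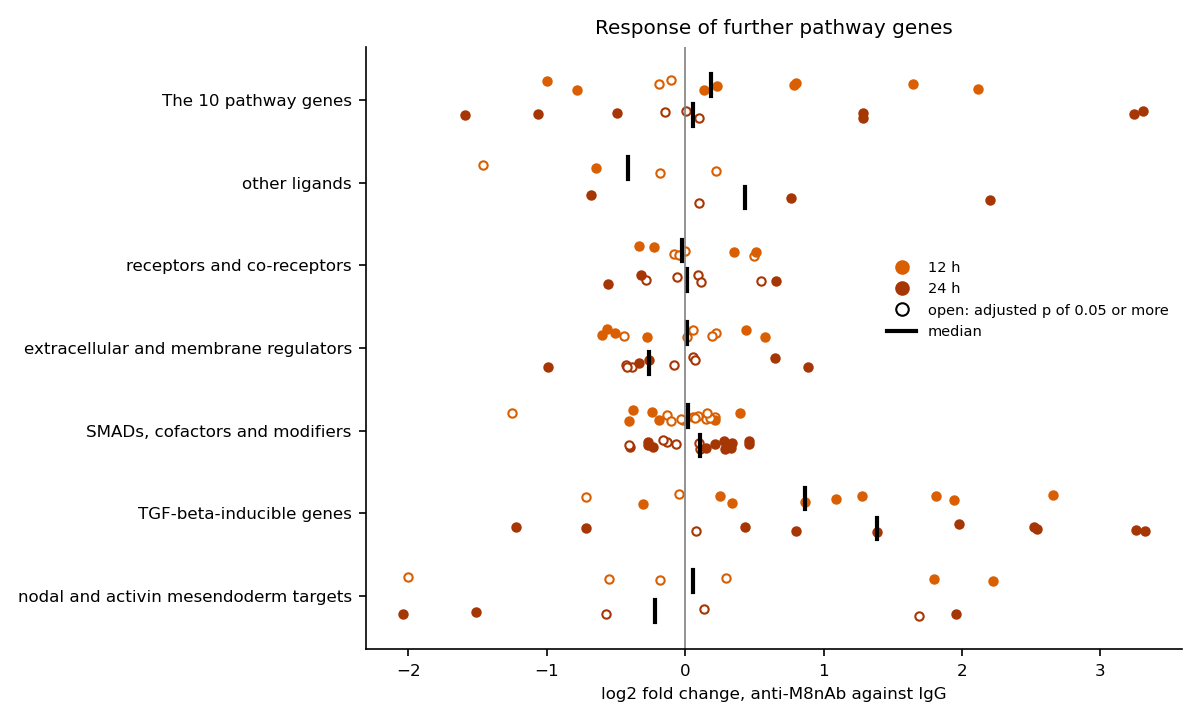
Log2 fold change of anti-M8nAb against IgG (horizontal axis) for the 10 genes and for 6 lists of further pathway genes, with 1 point per gene at 12 h (orange) and 24 h (brown), open where the adjusted p is 0.05 or more, and a bar at the median of each list. The TGF-beta-inducible genes have medians of 0.86 at 12 h and 1.39 at 24 h, and the medians of the receptors and of the SMADs lie close to 0.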

How the data were processed

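Total RNA of 8 BG01 libraries was sequenced. Per the study's methods and the submitters' processing notes, the authors used Trimmomatic to trim reads, STAR (2-pass mode, GRCh38.p14) to align them, Picard to remove duplicates and HTSeq to count reads over Ensembl genes. Also named in the notes are FastQC 0.11.9 and GATK. The deposited count table holds unnormalized counts per gene, and the deposited FPKM table holds values that the authors computed with RNAnorm. Each table has 4 further columns that were not used. The 1005 lines of the count table with a blank name were left out of library sizes and tests. The largest holds 49.3 to 50.2% of a library's counts, and the first 1000 hold 0.192 to 0.21% of the rest. All 62086 identifiers matched GENCODE release 44, which gave symbols, coordinates and exon overlaps.

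Genes of low count were removed with filterByExpr, libraries were scaled by TMM, and edgeR 4.0.16 (R 4.3.3) was fitted with a mean for each of the 4 groups. The quasi-likelihood F test (two-sided) was applied with Benjamini-Hochberg adjustment over all 20165 genes to 5 comparisons, namely anti-M8nAb against IgG at each time, the difference between these responses, and 24 h against 12 h within each treatment. A call is an adjusted p under 0.05, and calls of at least 2-fold were counted beside it. The common biological coefficient of variation was 5.53%. The fit was tested on simulated data. No effect shared by like-numbered libraries was seen, as their deviations correlated by 0.0209 at 12 h and -0.0452 at 24 h. Whether like-numbered libraries were set up together is not given in the sources used here.

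Named are the 10 genes, up to 5 genes of each further list with the smallest adjusted p at 12 h or 24 h, list genes below the filter, and the 5 genes with a mean of at least 5 CPM that correlate best with NODAL. The genes and lists were chosen with earlier results of these data known, and some genes are not reported here. Correlations used log2 CPM with an offset of 0.5. The alternatives were DESeq2 1.42.0, each time fitted alone, DESeq2's size factors, library totals, no filter, a mean of at least 1 CPM, limma 3.58.1 with a trend on log2(FPKM + 1) or log2(FPKM + 0.1), the first also with no filter, the replicate number as a block, fits without 1 library each, and a 2-fold threshold.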

Additional observations from a re-analysis of the deposited data

Results flagged for a closer look

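For 4 of the 10 genes the response to anti-M8nAb differed between 24 h and 12 h by a test of the difference itself (edgeR's quasi-likelihood test). The log2 response at 24 h less that at 12 h was -0.81 for LEFTY1, 0.49 for GDF3, 1.59 for CER1 and -0.88 for SMAD7. In SMAD7 the IgG libraries themselves were higher at 24 h than at 12 h, at 20.7 and 25.4 CPM against 13.6 and 17.3 CPM, whereas in CER1 the IgG libraries were alike, at 1.02 and 0.969 CPM at 24 h against 0.829 and 1.15 CPM at 12 h. In LEFTY1 the IgG libraries were higher at 24 h too, at 12.8 and 14.3 CPM against 10.4 and 9.93 CPM. Those of anti-M8nAb were lower, at 4.48 and 4.53 CPM at 24 h against 5.55 and 6.27 CPM at 12 h.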

How the results depend on the processing

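The calls of NODAL, LEFTY1, LEFTY2, GDF3 and CER1 at both times and of SMAD7 at 24 h held under every alternative other than the 2-fold threshold, and those of INHBA under every alternative that tested it (the filters on a mean of 1 CPM or 0.5 FPKM left it out). The 2-fold threshold left INHBA and CER1 at 12 h and NODAL, GDF3, INHBA, CER1, LEFTY1 and SMAD7 at 24 h. The cause of the changes below was not tested. INHBA and CER1 with IgG rest on few reads, which limits their folds. At 12 h, limma on log2(FPKM + 1) and log2(FPKM + 0.1) each called 5 of the 10 genes, against 8. Without a filter, limma called 3036 genes in all at 12 h, 5697 at 24 h, 454 (0 of the 10 genes) for the difference between the times, 246 (0 of the 10) for 24 h against 12 h with IgG and 3117 with anti-M8nAb. For the difference, limma called 919 genes (2 of the 10) with a pseudocount of 1 and 896 (2) with 0.1, and edgeR without a filter 1228 (2), against 2486 (4). For 24 h against 12 h with IgG these counts were 766 (1), 683 (0) and 1416, against 2753 (3). A threshold of 2-fold left 1284 genes (2 of the 10) at 12 h, 1935 at 24 h, 543 (1) for the difference, 267 (0) for time with IgG and 1186 (1) for time with anti-M8nAb.

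Leaving out 1 library each called 4241 to 6644 genes at 12 h (fewest without IgG replicate 1 at 12 h), 1452 to 2197 genes and 1 to 4 of the 10 for the difference, and 928 to 2929 genes and 0 to 3 of the 10 for time with IgG. Values that changed sign had not passed the test. SKIL at 24 h was -0.078 with library totals, -0.073 in limma with a pseudocount of 1, filtered or not, and -0.075 with 0.1. FURIN at 24 h was -0.031 with library totals, -0.027 in limma with a pseudocount of 1, filtered or not, and -0.030 with 0.1. With 1 library left out, the ranges that crossed 0 were -0.34 to 0.0061 for SMAD7, -0.38 to 0.65 for TGFB3, -0.030 to 0.18 for PPM1A and -1.86 to 0.81 for MIXL1 at 12 h. At 24 h they were -0.086 to 0.10 for SKIL, -0.12 to 0.29 for TGFB3, -0.020 to 0.13 for FURIN, -0.19 to 0.024 for BAMBI and -0.36 to 0.50 for EOMES. They were -0.20 to 0.27 for CER1 with IgG and -0.016 to 0.045 for TGFB1 with anti-M8nAb between the times. Whether the replicate numbers pair libraries is not given. With a replicate block, edgeR called 6421 genes at 12 h, 8496 at 24 h and 2434 for the difference, and lost LEFTY1 with IgG (adjusted p = 0.0562) and GDF3 with anti-M8nAb (adjusted p = 0.0526) between the times.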
